A study of Homo sapiens with 4 samples.

Results

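The genes described here are 10 members of the STAT3 pathway: the receptor subunits IL6ST, IL6R and OSMR, the kinase JAK1, the transcription factor STAT3, the phosphatase gene PTPN6, the feedback inhibitor SOCS3 and the STAT3 targets PIM1, LRG1 and BCL3. They were taken by name, 1 row each, from a table of 58825 genes. The libraries came from HaCaT, an established line of human keratinocytes, induced to differentiate in MEPICF500 medium with 1.2 mM calcium. The knockdown group (2 libraries) had received a lentivirus for the hairpin shlnc-DC against the long noncoding RNA lnc-DC. The control group (2 libraries) had received a lentivirus for the hairpin shNC, so both groups shared the virus, the cell line and the medium. Only 1 hairpin against lnc-DC is named, and the labels call the replicates biological without saying whether the infections were separate. Each limma p-value is measured against the spread between libraries within the 2 groups together, drawn toward the spread of genes of similar level.

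Cytokines of the interleukin-6 family bind a private receptor subunit, such as IL6R or OSMR, that pairs with the shared subunit gp130, the product of IL6ST. Kinases of the JAK family bound to these subunits then phosphorylate STAT3, which dimerises, enters the nucleus and switches on target genes, among them its own inhibitor SOCS3. Tyrosine phosphatases such as SHP1, the product of PTPN6, remove the phosphate, and in human dendritic cells lnc-DC is known to bind STAT3 and hinder this step. In the epidermis STAT3 is known for its part in wound healing and in psoriasis. RNA libraries measure neither phosphorylation nor protein, so every value here is an RNA level.

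The values were FPKM, fragments scaled to transcript length and to library total, as the authors deposited them. Between 22351 and 22780 genes stood above 0 in a library. Read totals were not in the table. Of summed FPKM, 28.1% and 26.8% was mitochondrially encoded RNA in the knockdown libraries, against 41.2% and 41.9% in the control libraries. Every other gene shares the total with it. That total was itself lower in the knockdown libraries, at 271297 and 274976 FPKM, against 319780 and 338424 FPKM in the control libraries. The labelled cell type was checked against 12 keratinocyte markers, of which 9 averaged at least 1 FPKM in a group. Their summed FPKM was 457 and 484 in the knockdown libraries, against 755 and 793 in the control libraries, and its part in the results below was not tested. In bulk libraries of this 1 line, fewer cells that express these markers and less marker RNA per cell cannot be told apart. KRT5 had 124 and 156 FPKM in the knockdown libraries, against 270 and 304 FPKM in the control libraries. KRT14, KRT16 and KRT17 did not exceed 0.85 FPKM in any library, although KRT14, the partner of KRT5, is a defining keratin of basal keratinocytes. None of 10 fibroblast markers averaged 1 FPKM, and their sum ran from 0.58 to 0.98 FPKM.

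The hairpin's target was checked first. WFDC21P is the gene of lnc-DC (minus strand of chromosome 17, 60083566 to 60091885, GRCh38 by GENCODE 29). It had 0.09 and 0.29 FPKM in the knockdown libraries, against 2.15 and 2.76 FPKM in the control libraries, with no overlap. On the log2(FPKM + 1) scale used for all tests it differed by -1.54 (SE 0.188), with an adjusted p of 0.0715 in limma, above the threshold of 0.05. The strand setting of the counting is not given in the sources used here, so reads of AC025048.4, which overlaps it on the opposite strand, cannot be told apart.

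Of the 10 pathway genes, 9 averaged at least 1 FPKM in a group and were tested, and IL6R did not reach that level. The members were chosen with earlier results of these data known, so their counts below are not an independent draw from all genes. None of the 9 passed at an adjusted p under 0.05 in limma, a rule that called 0.250% of all 12411 tested genes (14 higher and 17 lower in the knockdown, or 17 and 40 with quantile normalization and 13 and 24 with median centring). At an unadjusted p under 0.05 IL6ST was higher, and LRG1, PIM1 and PTPN6 were lower, so 4 of 9 passed this looser rule. BCL3 was also lower by it with quantile normalization and with median centring, and OSMR with the GC and length trend removed. It was passed by 22.8% of all tested genes, 14.8% higher and 8.00% lower; the 1834 higher and 993 lower genes behind these shares became 1336 and 1409 with quantile normalization and 1184 and 1397 with median centring. The groups did not overlap for 7 of the 9 genes, 2 higher and 5 lower, against 54.8% of all tested genes (35.6% higher and 19.2% lower). The log2 difference was above 0 for 3 of the 9, against 61.4% of all tested genes. The median log2 difference of the 9 was -0.22, and that of all tested genes was 0.0909. With quantile normalization these medians were -0.34 and 0.022, with median centring -0.30 and 0.011. With mitochondrial genes left out and the libraries rescaled they were -0.26 and 0.055. Over the 7 members left without genes that share exons, the members' median was -0.075. When any 1 library was left out, 3 of the 9 kept an unadjusted p under 0.05, and these were IL6ST, LRG1 and PIM1 each time.

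**Figure D1:**
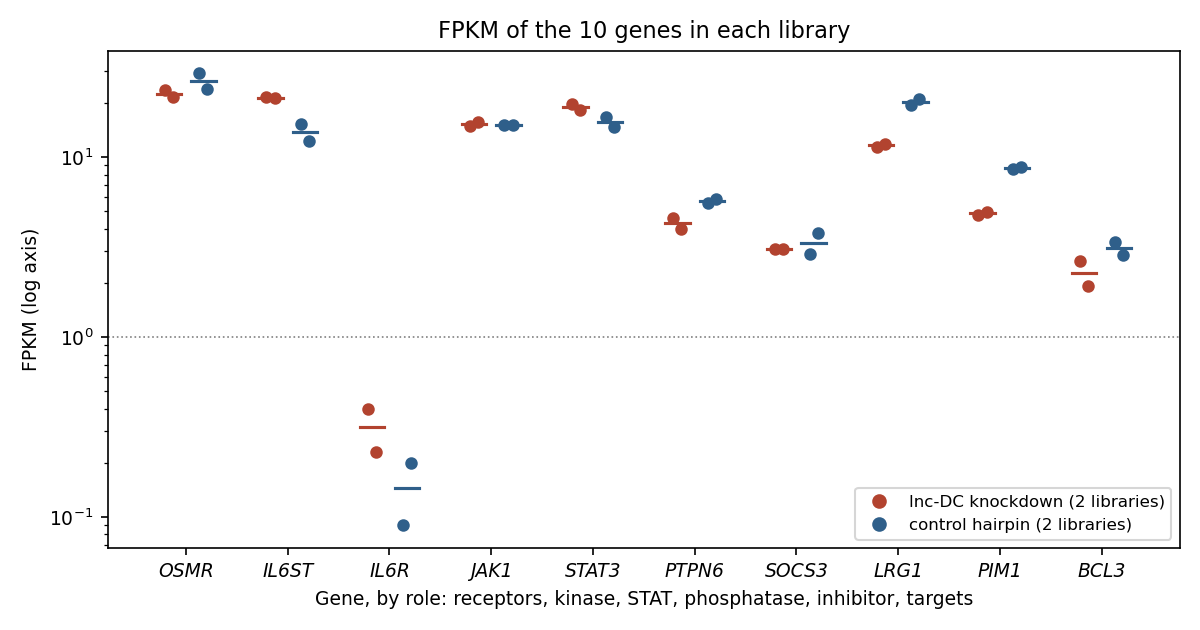
FPKM on a log axis for each of the 10 genes in the 2 lnc-DC knockdown libraries (red) and the 2 control libraries (blue); points are libraries, short bars are group means, and the dotted line marks 1 FPKM. LRG1 and PIM1 lie lower and IL6ST lies higher in the knockdown libraries, JAK1 points coincide, and IL6R lies under 1 FPKM throughout.

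The order of the 10 levels, which FPKM allows to be compared per length of transcript, differed in its upper part. In the knockdown libraries OSMR stood first at 22.5 ± 1.39 FPKM (mean ± SD, n = 2), followed by IL6ST, STAT3, JAK1 and LRG1. OSMR and IL6ST overlapped, and no other neighbours in that order did. In the control libraries OSMR stood first at 26.5 ± 3.85 FPKM (n = 2), followed by LRG1, STAT3, JAK1 and IL6ST, and STAT3 overlapped JAK1 and JAK1 overlapped IL6ST. PIM1, PTPN6, SOCS3, BCL3 and IL6R followed in this order in both groups. SOCS3 and BCL3 overlapped only in the control libraries. Averaged over the 4 libraries, OSMR exceeded 87.5% of tested genes, STAT3 81.8%, PTPN6 47.2% and BCL3 28.2%.

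Among the receptors, the shared subunit averaged higher in the knockdown and its oncostatin M partner lower, neither past the adjusted threshold. IL6ST (ENSG00000134352, chromosome 5) had 21.6 and 21.3 FPKM in the knockdown libraries, against 15.3 and 12.4 FPKM in the control libraries. Both knockdown values lay above both control values, a 1.55-fold ratio of means. The log2 difference was 0.61 (SE 0.136, 95% interval 0.25 to 0.96), with a limma adjusted p of 0.113. It was 0.40 once the trend of log2 values with GC content and length had been removed; the longest IL6ST transcript is 36.6% GC, and log2 differences of all genes ran against GC content (Spearman rho -0.217 across genes, which are not replicates). OSMR (ENSG00000145623, chromosome 5), which pairs with gp130 as the receptor for oncostatin M, had 23.5 and 21.5 FPKM in the knockdown libraries, against 29.2 and 23.8 FPKM in the control libraries. The groups were separated only by the small gap between 23.5 and 23.8 FPKM, and the log2 difference of -0.22 (95% interval -0.59 to 0.15) had a limma adjusted p of 0.411. It was -0.077 without control replicate 1, -0.36 without control replicate 2 and -0.33 with the GC and length trend removed. Exons of OSMR, IL6ST and JAK1 overlap those of RICTOR, AC008914.1 and RAVER2 on the opposite strand.

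The level of IL6ST set against OSMR within a library does not depend on the library's total. The IL6ST to OSMR ratio was 0.919 and 0.987 in the knockdown libraries, against 0.522 and 0.519 in the control libraries. The ratios did not overlap, and the exact two-sided permutation test gave p = 0.333, the smallest it can give with 2 libraries against 2 (adjusted p = 0.458 over the 11 ratios computed). IL6R (ENSG00000160712, chromosome 1), the private receptor of interleukin-6, had 0.40 and 0.23 FPKM in the knockdown libraries, against 0.09 and 0.20 FPKM in the control libraries. These values lay below the filter, so the gene has no test. Its ligand gene IL6 was also low, with 0.52 and 0.55 FPKM in the knockdown libraries and 0.40 and 0.32 FPKM in the control libraries.

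JAK1 (ENSG00000162434, chromosome 1), the kinase that gp130 depends on most, had the smallest log2 difference of the 9 tested members. It had 15.0 and 15.7 FPKM in the knockdown libraries, against 15.2 and 15.1 FPKM in the control libraries. The values interleaved, and the log2 difference was 0.01 (95% interval -0.25 to 0.28), with a limma adjusted p of 0.945. Its sign turned under each rescaling, as given in the closing section, so no direction is drawn.

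STAT3 itself (ENSG00000168610, minus strand of chromosome 17, 42313324 to 42388568) did not average lower in the knockdown. It had 19.9 and 18.3 FPKM in the knockdown libraries, against 16.8 and 14.8 FPKM in the control libraries. Both knockdown values were the higher ones, by a 1.21-fold ratio of means. The log2 difference of 0.26 (SE 0.119, 95% interval -0.05 to 0.57) had a limma adjusted p of 0.276, and it was 0.14 with quantile normalization. The 3 genes whose log2 values followed STAT3 most closely over the 4 libraries were NSMF, MYH9 and SMCR8, with Pearson r of 0.99996, 0.99946 and 0.99937. With 4 libraries such likeness is common, as 315 of 3884 genes at 10 FPKM or more reached an r of 0.95.

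PTPN6 (ENSG00000111679, plus strand of chromosome 12, 6946468 to 6961316), which codes for SHP1, had 4.57 and 3.99 FPKM in the knockdown libraries, against 5.55 and 5.82 FPKM in the control libraries. Both knockdown values were the lower ones, and the means stood 1.33-fold apart. The log2 difference was -0.34 (SE 0.121, 95% interval -0.66 to -0.02), with a limma adjusted p of 0.198 and a range of -0.42 to -0.20 over 16 alternative settings. SHP1 is best known from blood cells, so haematopoietic markers were read beside it. PTPRC, SPI1 and IKZF1 were listed at 0 in all 4 libraries, and 3 of 12 such markers averaged at least 1 FPKM in a group. The summed FPKM of all 12 was 103 and 109 in the knockdown libraries, against 63.4 and 68.0 in the control libraries, nearly all of it from LCP1 (95.7 and 102 FPKM in the knockdown libraries, against 54.9 and 60.6 FPKM in the control libraries).

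PTPN6 is known to start from an epithelial promoter and from a downstream haematopoietic one. RefSeq (GRCh38.p14) gives a start for each, and both are shown because the deposited value is 1 number over 23 transcripts and cannot tell them apart. Each run below ends just before the first start of a PTPN6 exon that GENCODE 29 places in the window. Lower case throughout means that neither holds the STAT motif searched below.
PTPN6 upstream start, chr12:6946327-6946467, plus strand: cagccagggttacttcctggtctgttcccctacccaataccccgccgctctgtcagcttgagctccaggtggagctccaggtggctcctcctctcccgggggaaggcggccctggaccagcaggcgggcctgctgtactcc
PTPN6 downstream start, chr12:6951106-6951261, plus strand: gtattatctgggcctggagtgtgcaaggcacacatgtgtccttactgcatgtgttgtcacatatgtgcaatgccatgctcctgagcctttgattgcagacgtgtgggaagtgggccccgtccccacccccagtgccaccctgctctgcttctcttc

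**Figure D2:**
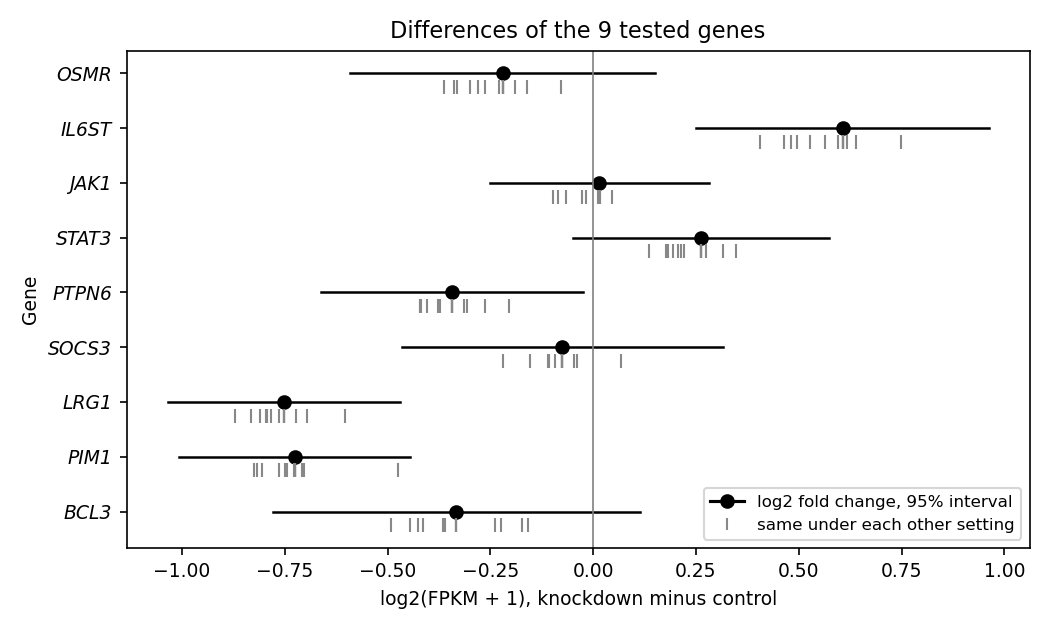
Log2(FPKM + 1) of the knockdown minus the control for the 9 tested genes; black points are the limma estimates with 95% intervals, and grey ticks under each are the values under the other settings. LRG1 and PIM1 lie left of 0 and IL6ST right of 0 under every setting that gave them a value, while ticks of JAK1 and SOCS3 fall on both sides.

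The targets LRG1, PIM1 and BCL3 averaged lower in the knockdown without passing the adjusted threshold, and LRG1 and PIM1 had the smallest adjusted p of the members. LRG1 (ENSG00000171236, minus strand of chromosome 19, 4536409 to 4540474) codes for a secreted leucine-rich glycoprotein of the acute phase. It had 11.4 and 11.9 FPKM in the knockdown libraries, against 19.4 and 21.1 FPKM in the control libraries. The groups lay far apart against their SDs of 0.375 and 1.18 FPKM, and the mean was 0.573 times that of the control. The log2 difference was -0.75 (SE 0.108, 95% interval -1.04 to -0.47), with a limma adjusted p of 0.0747, and 2.85% of all tested genes lay as far below 0 or farther. LRG1 shares exon bases on the same strand with AC011498.4.

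PIM1 (ENSG00000137193, plus strand of chromosome 6, 37170203 to 37175426) codes for a serine/threonine kinase that promotes survival and growth. It had 4.78 and 4.97 FPKM in the knockdown libraries, against 8.59 and 8.85 FPKM in the control libraries. The SDs were 0.134 and 0.184 FPKM while the means stood 1.79-fold apart. The log2 difference was -0.73 (SE 0.107, 95% interval -1.01 to -0.45), with a limma adjusted p of 0.0759 that ranged from 0.0649 to 0.277 over 16 alternative settings. BCL3 (ENSG00000069399, chromosome 19), an atypical IκB protein that works with NF-κB p50 and p52, had 2.64 and 1.92 FPKM in the knockdown libraries, against 3.38 and 2.85 FPKM in the control libraries. Its groups were just apart, and the log2 difference of -0.33 (95% interval -0.78 to 0.11) had a limma adjusted p of 0.321. It was -0.17 without knockdown replicate 2 and -0.16 with a pseudocount of 5.

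SOCS3 (ENSG00000184557, minus strand of chromosome 17), which blocks JAK kinases at gp130, overlapped between groups. It had 3.10 and 3.10 FPKM in the knockdown libraries, against 2.91 and 3.77 FPKM in the control libraries. The knockdown values lay between the 2 control values. The log2 difference was -0.07 (95% interval -0.47 to 0.32) with a limma adjusted p of 0.79, and it became 0.068 without control replicate 2. The difference between the changes of SOCS3 and PIM1 was not tested.

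Set against STAT3 in the same library, LRG1, PIM1, PTPN6 and BCL3 each stood lower in the knockdown. STAT3 itself averaged 1.21-fold higher there, so a gene of equal FPKM in both groups would also have a lower ratio. The share of all tested genes with a lower ratio to STAT3 was not computed. The PTPN6 to STAT3 ratio was 0.230 and 0.218 in the knockdown libraries, against 0.331 and 0.394 in the control libraries. The LRG1 to STAT3 ratio was 0.572 and 0.648 in the knockdown libraries, against 1.16 and 1.43 in the control libraries. PIM1 gave ratios of 0.241 and 0.271 in the knockdown libraries, against 0.513 and 0.598 in the control libraries. BCL3 gave 0.133 and 0.105 in the knockdown libraries, against 0.202 and 0.193 in the control libraries. None of these ratios overlapped between groups, and each had p = 0.333 in the exact two-sided permutation test, the smallest possible (adjusted p = 0.458 over 11 ratios). SOCS3 to STAT3 was 0.156 and 0.169 in the knockdown libraries, against 0.174 and 0.255 in the control libraries, a narrow gap. For PTPN11, which codes for the related phosphatase SHP2, the ratio to STAT3 overlapped, with 1.77 and 1.98 in the knockdown libraries, against 1.87 and 1.81 in the control libraries. SHP1 RNA was the lesser of both phosphatases throughout, at 0.130 and 0.110 of PTPN11 in the knockdown libraries and 0.177 and 0.217 in the control libraries. STAT3 is in every denominator of these ratios except the last, so they are not independent of each other.

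**Figure D3:**
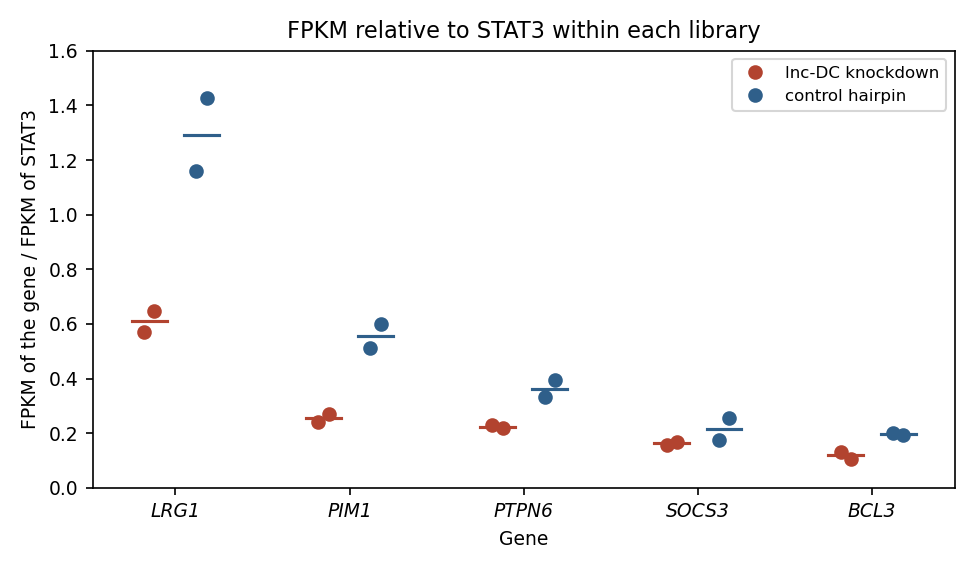
FPKM of LRG1, PIM1, PTPN6, SOCS3 and BCL3 divided by the FPKM of STAT3 in the same library, on a linear axis from 0; points are libraries and bars are group means. The knockdown points (red) lie below the control points (blue) for all 5 genes, widest for LRG1 (means 0.610 and 1.29). STAT3, the denominator, itself averaged higher in the knockdown.

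The wider pathway was read from lists ordered by role, with the members included, so members are counted again there. The lists too were chosen with earlier results of these data known. No gene of any list passed at an adjusted p under 0.05 in limma, against the background of 0.250%. Of 19 cytokine genes only 3 were tested, and 9, among them OSM, IL22 and IL10, were listed at 0 in all libraries. LIF, leukaemia inhibitory factor, had 12.4 and 10.8 FPKM in the knockdown libraries, against 8.39 and 7.04 FPKM in the control libraries (limma adjusted p = 0.133). CLCF1, a cytokine that signals through gp130, averaged 4.94 ± 0.0141 FPKM in the knockdown libraries and 4.19 ± 0.0141 FPKM in the control libraries (n = 2 each). CNTF overlapped between groups.

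Of 16 receptor genes 6 were tested, and 2 were higher and 2 lower at an unadjusted p under 0.05. Over all tested genes 14.8% were higher and 8.00% lower by that rule. The median log2 difference of the 6 was 0.03, and -0.04 with quantile normalization. Without genes that share exons it was 0.30 over 4 genes, with 2 higher and 0 lower by the same rule. IL20RB, a subunit of the receptors for interleukins 19, 20 and 24, had 10.99 and 10.82 FPKM in the knockdown libraries, against 19.78 and 22.79 FPKM in the control libraries. Its groups lay wide apart, at a log2 difference of -0.90 (SE 0.118, limma adjusted p = 0.0723), and its exons overlap those of NCK1 on the same strand. IL10RB, shared by the receptors for interleukins 10 and 22, had 2.79 and 2.94 FPKM in the knockdown libraries, against 4.17 and 4.22 FPKM in the control libraries. Exons of IL10RB overlap those of AP000295.1 on the same strand. IL27RA, the private subunit for interleukin-27, averaged 4.39 ± 0.198 FPKM in the knockdown libraries and 3.32 ± 0.0849 FPKM in the control libraries (n = 2 each).

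Of 10 kinase genes 7 were tested. At an unadjusted p under 0.05, 1 was higher and none lower, against 14.8% and 8.00% of all tested genes (0 and 2 of the 7 with quantile normalization). That gene was LYN, a SRC-family kinase, which averaged 16.9 ± 0.304 FPKM in the knockdown libraries and 13.8 ± 0.240 FPKM in the control libraries (n = 2 each). JAK2 had 1.26 and 1.23 FPKM in the knockdown libraries, against 1.51 and 1.01 FPKM in the control libraries, so JAK1 had the more RNA of both in every library. YES1, another SRC-family kinase, had 15.7 and 15.4 FPKM in the knockdown libraries, against 12.9 and 4.99 FPKM in the control libraries, so the controls lay farther from each other than the group means did. TYK2 and PTK6 had log2 differences of -0.28 and -0.30, with limma adjusted p of 0.384 and 0.338. When 1 library was left out they ran from -0.43 to -0.12 and from -0.45 to -0.16, with TYK2 smallest without knockdown replicate 2 and PTK6 without control replicate 1.

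Of 8 genes in the list of STATs and IRF9, 6 were tested. STAT6 alone passed an unadjusted p under 0.05, against 22.8% of all tested genes (3 of the 6, all lower, with quantile normalization). STAT6, which serves interleukins 4 and 13, had 16.1 and 13.7 FPKM in the knockdown libraries, against 21.9 and 19.7 FPKM in the control libraries (log2 difference -0.45, limma adjusted p = 0.15). STAT2 and STAT5B had lower means in the knockdown, with log2 differences of -0.55 and -0.22 and limma adjusted p of 0.289 and 0.315, and that of STAT2 ran from -0.85 without knockdown replicate 1 to -0.24 without knockdown replicate 2. IRF9, a DNA-binding partner of STAT2, had a log2 difference of 0.13 that turned to -0.14 without control replicate 2.

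Of 12 phosphatase genes 8 were tested, and PTPN6 was the 1 lower at an unadjusted p under 0.05. PTPN1 and PTPN2, which act on JAK kinases and STATs, were the 2 that were higher at an unadjusted p under 0.05. Over all tested genes 14.8% were higher and 8.00% lower by that rule. PTPN1 had 33.9 and 31.8 FPKM in the knockdown libraries, against 25.7 and 24.1 FPKM in the control libraries (limma adjusted p = 0.145). PTPN2 averaged 5.68 ± 0.622 FPKM in the knockdown libraries and 4.18 ± 0.297 FPKM in the control libraries (n = 2 each). PTPN11 had 35.1 and 36.4 FPKM in the knockdown libraries, against 31.3 and 26.8 FPKM in the control libraries (limma adjusted p = 0.246). The median of the 8 was 0.12, against 0.0909 over all tested genes.

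Of 15 inhibitor genes 13 were tested. Only SOCS2 passed an unadjusted p under 0.05, and it was lower, against 22.8% of all tested genes in either direction. SOCS2, best known for restraining growth hormone signalling, had 2.26 and 1.79 FPKM in the knockdown libraries, against 3.77 and 3.69 FPKM in the control libraries (log2 difference -0.65, limma adjusted p = 0.111). PIAS3, an inhibitor of STAT3 binding to DNA, had 8.74 and 8.11 FPKM in the knockdown libraries, against 13.0 and 9.59 FPKM in the control libraries (limma adjusted p = 0.278). PIAS2 and PIAS4 had log2 differences of 0.26 and 0.24, and that of PIAS4 was 0.11 without knockdown replicate 1. Of 13 cofactors and adaptors, all tested, STAM alone passed an unadjusted p under 0.05, against 22.8% of all tested genes. STAM, an adaptor that binds JAK kinases and sorts receptors at endosomes, had 18.9 and 19.6 FPKM in the knockdown libraries, against 11.97 and 11.18 FPKM in the control libraries (log2 difference 0.69, limma adjusted p = 0.0789). EP300, SOS1 and SMARCA4 had log2 differences of 0.32, 0.38 and 0.27, with limma adjusted p of 0.457, 0.359 and 0.265. EP300 was at 0.071 without control replicate 2 and 0.58 without control replicate 1, and SOS1 was at 0.12 and 0.64 without the same libraries.

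**Figure D4:**
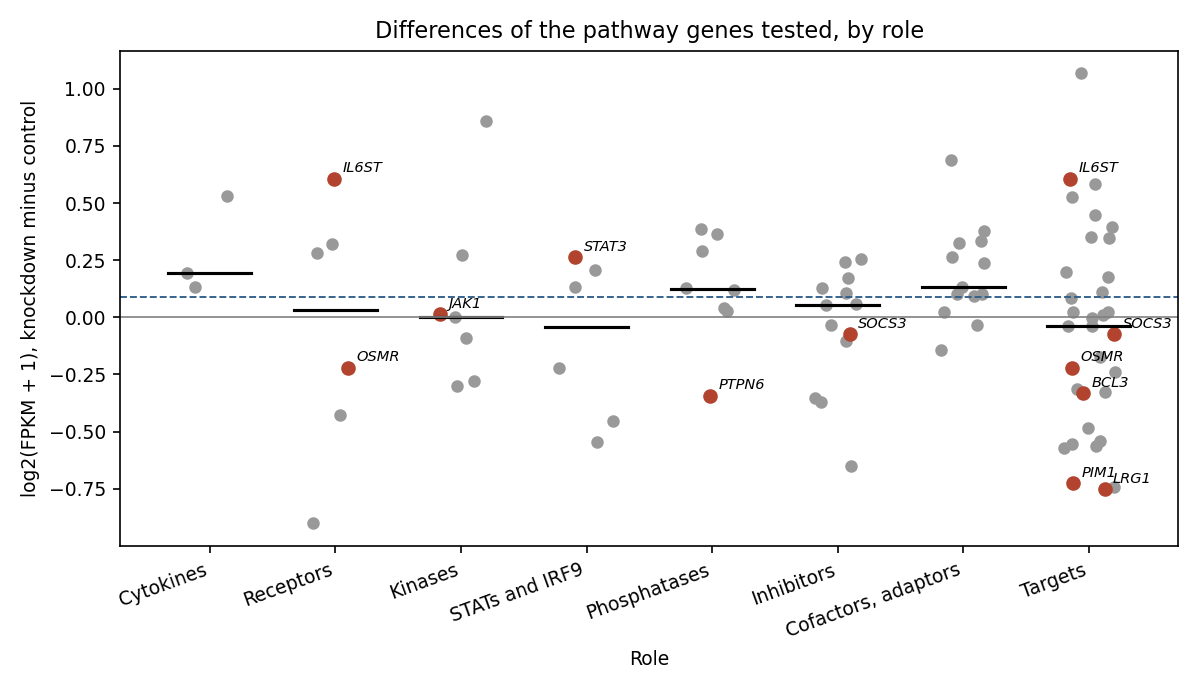
Log2(FPKM + 1) of the knockdown minus the control for each tested gene of the 8 role lists; red points are the named members, grey points the other genes, short black bars the list medians and the dashed line the median of all tested genes (0.0909). Members stand both at the edges (LRG1, PIM1, IL6ST) and at the middle (JAK1, SOCS3) of their lists, and a gene in 2 lists is drawn in both.

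The list of STAT3 targets held genes with differences in both directions. Of its 41 genes 33 were tested, and at an unadjusted p under 0.05 there were 7 higher and 8 lower, against 14.8% higher and 8.00% lower over all tested genes (4 and 12 with quantile normalization, 4 and 10 with median centring). The median log2 difference of the 33 was -0.04, with no stable sign. It was -0.12 with quantile normalization, -0.18 without knockdown replicate 1 and -0.14 without control replicate 2, but 0.024 without knockdown replicate 2 and 0.015 without genes that share exons. IRF1, a transcription factor of interferon responses, had 13.1 and 11.6 FPKM in the knockdown libraries, against 21.0 and 21.6 FPKM in the control libraries (log2 difference -0.74, SE 0.112, limma adjusted p = 0.0785). BIRC5, which codes for survivin, had the opposite sign, with 6.85 and 7.52 FPKM in the knockdown libraries, against 4.47 and 4.46 FPKM in the control libraries (log2 difference 0.58, SE 0.113, limma adjusted p = 0.102). The liver acute-phase genes CRP, HP, FGA, FGB and FGG were listed at 0 in all libraries.

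STAT dimers are known to bind the palindrome TTCNNNGAA, which reads the same on both strands. It was searched in the 250 bases before each RefSeq gene start (GRCh38.p14), and 6.57% of 35116 such windows held it. The 10 members had 14 windows, and 1 of them, that of LRG1, held a match. Of the 41 target genes 29 had a window, and 4 of their 37 windows held a match, namely those of LRG1, IRF1, ICAM1 and FGA. LRG1 and IRF1 are shown with 10 bases on each side because both had lower RNA in the knockdown and both carry the palindrome, in capitals.
LRG1, chr19:4540180-4540208, minus strand: aggaaacaatTTCCAGGAAgcaattttgt
IRF1, chr5:132490879-132490907, minus strand: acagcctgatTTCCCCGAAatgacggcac
The LRG1 match begins 162 bases before the RefSeq start and lies inside an exon of LRG1 in GENCODE 29. The IRF1 match begins 124 bases before its start and lies in no exon of IRF1 there. Exons of other genes were not checked for these matches. ICAM1, an adhesion molecule, holds the palindrome as well and had the opposite direction, with 23.1 and 20.1 FPKM in the knockdown libraries, against 14.5 and 14.9 FPKM in the control libraries (limma adjusted p = 0.114). PIM1, the member nearest to LRG1 in its difference, has no match in its window of 250 bases, which is 79.6% GC and is shown for contrast.
PIM1, chr6:37169902-37170151, plus strand: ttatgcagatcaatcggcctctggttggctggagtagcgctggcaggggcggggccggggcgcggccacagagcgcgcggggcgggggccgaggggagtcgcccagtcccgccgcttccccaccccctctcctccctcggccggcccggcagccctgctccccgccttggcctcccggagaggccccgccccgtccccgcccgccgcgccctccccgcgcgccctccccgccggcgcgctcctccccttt
A match in letters is not a bound site, and the absence of one says only that these letters are not in this window.

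**Figure D5:**
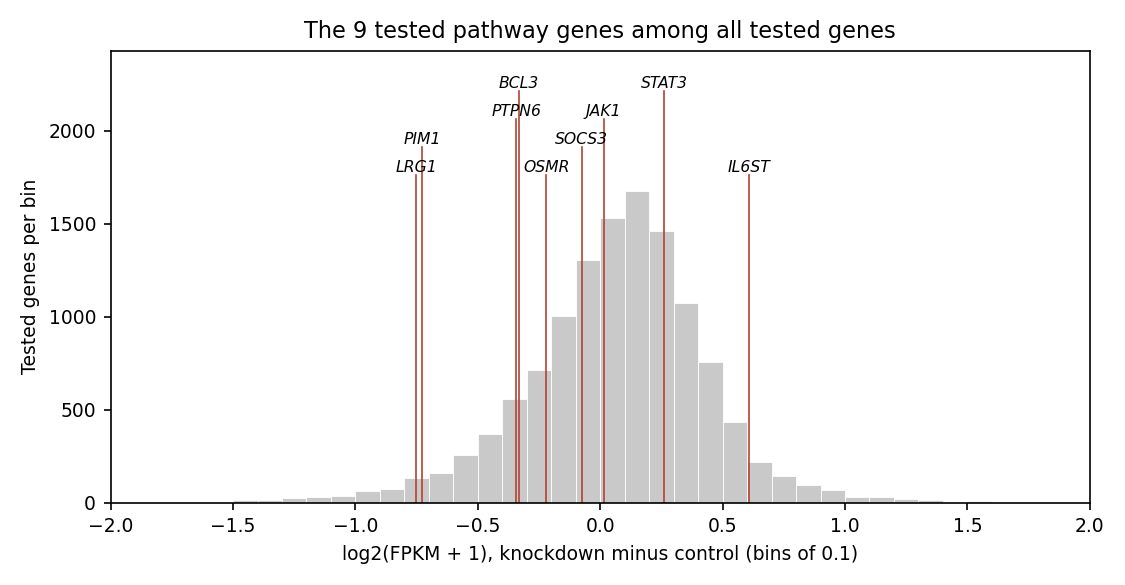
Number of tested genes per bin of 0.1 in log2(FPKM + 1), knockdown minus control (39 of 12411 genes lie beyond the axis), with a red line for each of the 9 tested pathway genes. LRG1 and PIM1 stand in the lower tail, IL6ST in the upper tail where 5.38% of tested genes lie as far up or farther, and the other 6 stand within the body of the distribution.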

How the data were processed

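RNA was purified with oligo(dT) beads and sequenced as paired reads of 150 bases, per the labels' protocols. The tools named in the submitters' processing notes are StringTie 1.3.4d, HISAT2 2.0.4, edgeR, DESeq2 and cutadapt 1.9. No role, build, annotation or strand setting is given in the sources used here. The authors deposited FPKM values with 2 decimals, a fold (ratio) of group means and its log2; the deposited log2 values for LRG1 and PIM1, -0.80 and -0.84, are ratios of FPKM with no pseudocount. Low FPKM values did not step in whole reads (at best 29.5% to 32.3% of values within 0.1 of a whole number, against a median of 18.7% to 18.9%), so depth is unknown. Columns without a sample numbered 0.

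Values were taken as log2(FPKM + 1), which understates changes of low genes, and limma 3.58.1 (R 4.3.3; two-sided, intensity trend, no covariate) was run on the 12411 genes averaging 1 FPKM or more in either group, adjusted by Benjamini-Hochberg over all of them. The fit was tested on simulated data. Positions, lengths, GC content and exon overlaps came from GENCODE 29, which held 58552 of 58825 gene IDs. Members and lists were chosen with earlier results of these data known. Named genes were the members, WFDC21P, tested STATs (1 is not reported here), up to 4 genes per list with the smallest p, and 3 genes most like STAT3; marker genes, genes that overlap others, IL6, OSM, IL22, IL10, JAK2, ICAM1, CRP, HP, FGA, FGB, FGG, and in the closing section MYC, SERPINB3, KRT6A, S100A7, S100A8 and S100A9, were named after their values were seen.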

Additional observations from a re-analysis of the deposited data

How the results depend on the processing

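Each value was recomputed under 16 alternative settings. Of the 140 values these gave for the 9 tested members, 134 kept their direction and none passed an adjusted p under 0.05. The exceptions were JAK1, at -0.10 with quantile normalization, -0.065 with median centring, -0.026 with mitochondrial genes left out, -0.086 with GC content and length removed and -0.017 to 0.047 when 1 library was left out, and SOCS3, at -0.22 to 0.068 when 1 library was left out (positive without control replicate 2). Among the 33 other genes that the naming rule gave, only IRF9 turned, with -0.14 to 0.40 when 1 library was left out (negative without control replicate 2). Of the genes named after their values were seen, JAK2 (-0.17 to 0.16), MYC (-0.88 to 3.01) and S100A9 (-0.031 to 0.37) changed sign over the alternatives. The cause was not tested. The counts over all genes moved more: 31 higher and 27 lower with a filter at 5 FPKM, 5 and 4 without genes that share exons, 8 and 9 without the intensity trend, 10 lower with a pseudocount of 5, 40 lower with quantile normalization, and 0 and 0 with no filter (2347 higher and 1529 lower at an unadjusted p under 0.05). Leaving out 1 library, so that the lone one of its group is assumed to vary like the others, gave 0 to 0 in each direction (981 to 1498 higher and 662 to 881 lower at an unadjusted p under 0.05). With the replicate number as a block the counts were 0 and 0, with 2495 higher and 1296 lower at an unadjusted p under 0.05; same-numbered libraries deviated together weakly (r = 0.124 over tested genes), and the labels do not say that a number marks shared cultures. Among the members the block brought BCL3 (lower) and STAT3 (higher) under an unadjusted p of 0.05, for 6 of 9 in all. STAT3 had an unadjusted p of 0.0375 with the block and 0.0823 without it in limma, and adjusted p of 0.146 and 0.276. With 2 libraries a group and depth unknown, precision is limited by the spread within pairs of libraries.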

Other observations

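Genes that keratinocytes are known to raise in response to interleukin-22, oncostatin M and related cytokines were read as a further list. Of 19 such genes 14 were tested and none passed over all genes in limma; 7 were higher and 3 lower at an unadjusted p under 0.05, against 14.8% higher and 8.00% lower over all tested genes. The median log2 difference was 0.26, but -0.19 over 12 genes without knockdown replicate 2 (4 higher and 3 lower) and 0.13 without control replicate 1, so the list has no stable direction. CXCL8, a chemokine for neutrophils, had 10.7 and 13.2 FPKM in the knockdown libraries, against 4.22 and 5.70 FPKM in the control libraries (log2 difference 1.12, limma adjusted p = 0.0849). CXCL1, a related chemokine, had 35.2 and 33.8 FPKM in the knockdown libraries, against 18.3 and 21.4 FPKM in the control libraries. The protease inhibitor PI3, known as elafin, had 147 and 164 FPKM in the knockdown libraries, against 87.8 and 97.3 FPKM in the control libraries. DEFB4A, which codes for an antimicrobial defensin, averaged 3.82 ± 0.488 FPKM in the knockdown libraries and 1.57 ± 0.134 FPKM in the control libraries (n = 2 each). SERPINB3 and KRT6A went the other way, with log2 differences of -0.99 and -1.14. S100A7, S100A8 and S100A9, alarmins of inflamed epidermis, overlapped between the groups, with limma adjusted p of 0.391, 0.589 and 0.647. Several of these genes also answer to other pathways, and the part of STAT3 in their values was not tested.

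MYC, a member of the target list, varied more between replicates than between groups. It had 11.6 and 28.3 FPKM in the knockdown libraries, against 34.3 and 1.38 FPKM in the control libraries, a 24.9-fold spread between the 2 controls. PIM1 differed 1.03-fold between the same 2 controls.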
